A study of Mus musculus with 12 samples.

Results

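RAW264.7 cells, a line of mouse macrophages, were compared after 24 h with palmitic acid and FABP4 together against the same line after 24 h with neither. Treatment labels chose the members: 3 arrays positive for both agents and 3 arrays negative for both, 6 of the 12 arrays in the series. The treated cells had received 0.2 mM palmitic acid and 200 nM recombinant FABP4, and the control cells neither. Of the other groups, 3 arrays had palmitic acid alone and 3 had FABP4 alone, at these concentrations and this time. All 4 groups, controls included, were in medium with 0.5% BSA free of fatty acids, and the cells were grown in 10% serum. The labels name a cell line and no animal, and whether each array had its own culture is not stated, so that the p-values speak of the spread among these arrays alone, and part or all of it may be technical.

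Palmitic acid is the most common saturated fatty acid of the circulation, and BSA carries it in culture medium. FABP4, also named aP2, is a small intracellular carrier of fatty acids made by adipocytes and macrophages, and fat cells also release it. Inside a macrophage, fatty acids are stored as triglyceride in lipid droplets or burned in mitochondria, and they are ligands of the PPAR receptors. An excess of saturated fatty acid in membranes can set off the unfolded protein response of the endoplasmic reticulum and inflammatory signalling. RAW264.7 cells can also be driven towards osteoclasts, the bone-resorbing relatives of macrophages.

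Each array held 59305 spots other than controls, of which 42.8% to 46.7% were well above background and 0 were saturated. Levels are log2 of the processed intensity relative to the 75th percentile of that array's spots, so a level of 0 is that percentile. A change is the mean level with palmitic acid plus FABP4 minus that of the controls, given as the estimate ± SE of a limma fit (n = 3 arrays per group), and it was called where the p-value, adjusted by Benjamini-Hochberg over 17596 genes, was below 0.05. The median SE was 0.08, and the 95% confidence interval of a change reached 0.19 to each side. The 13 markers of macrophages were all above background on all 6 arrays, with a summed linear level of 2229 to 2272 with palmitic acid plus FABP4 and 2083 to 2159 in controls, in units of the 75th percentile. Of the markers of other cell types, above background on all arrays of both groups were 2 of 7 for dendritic cells, 3 of 8 for neutrophils, 1 of 6 for fibroblasts, 0 of 5 for adipocytes and 3 of 6 for lymphocytes. Over all spots the share on an array was 42.8% to 46.7%. Their summed levels were 5.79 to 6.14 against 5.81 to 6.22 for dendritic cells, 14.8 to 15.7 against 15.7 to 16.3 for neutrophils, 0.348 to 0.812 against 0.279 to 0.328 for fibroblasts, 0.164 to 0.216 against 0.114 to 0.137 for adipocytes and 13.0 to 14.0 against 10.8 to 12.4 for lymphocytes, with palmitic acid plus FABP4 first. The part of these markers in the results was not tested. In bulk RNA such as this, fewer cells of a type and less RNA per cell cannot be told apart.

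The 3 arrays with palmitic acid plus FABP4 lay on slide 2 and the 3 control arrays on slide 1, so treatment and slide cannot be told apart from these 6 arrays. The slides are linked by the group with FABP4 alone, which had array 1 on slide 1 and arrays 2 and 3 on slide 2. A fit with the slide as a fixed block thus adds the difference of palmitic acid plus FABP4 from FABP4 arrays 2 and 3 to the difference of FABP4 array 1 from the controls, and the results below are set beside that fit. Within slide 2 the compared arrays also differed in row, row 1 for FABP4 arrays 2 and 3 and row 2 for those with palmitic acid plus FABP4. With the block a value moves by the difference of FABP4 array 1 from FABP4 arrays 2 and 3, so the move rests on FABP4 array 1. The values of Ero1a, Igtp, Tlr13 and Mdm2 below grew in this way.

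Cells with palmitic acid plus FABP4 had higher levels of some genes for lipid droplet coats, fatty acid binding proteins, the hypoxia response and osteoclast functions. They also had higher levels of Cpt1a, a gene for mitochondrial fatty acid entry, and lower levels of some genes for cholesterol export and fatty acid synthesis. Of 17596 genes, 947 rose (5.38%) and 376 fell (2.14%), together 1323 (7.52%). The 7.52% is the share to set beside the counts of called list members below. In all 1323 called genes the treated and control arrays did not overlap, so non-overlap in a called gene below adds nothing to its call. Above 1 on the log2 scale were 62 rises, and 0 falls went below -1. The split between rises and falls depends on the scaling: rises were 71.6% of the called genes here, 57.9% of 1360 when only probes above background on every array set the percentile, 61.3% of 1381 with quantile normalization, and 87.4% of 672 with no scaling. A fixed slide term left 160 called genes (0.909%), 96 higher and 64 lower, of which 83 were among the 1323, and with the slide as a random block 221, all of them among the 1323. Both fits use the same treated and control arrays, and these genes were called on them, so most signs were likely to stay. Of the called rises, 929 were above 0 in the fixed-block fit and 18 below, at a median of 0.940 of their size. Of the called falls, 374 were below 0 and 2 above, at a median of 0.718.

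**Figure D1:**
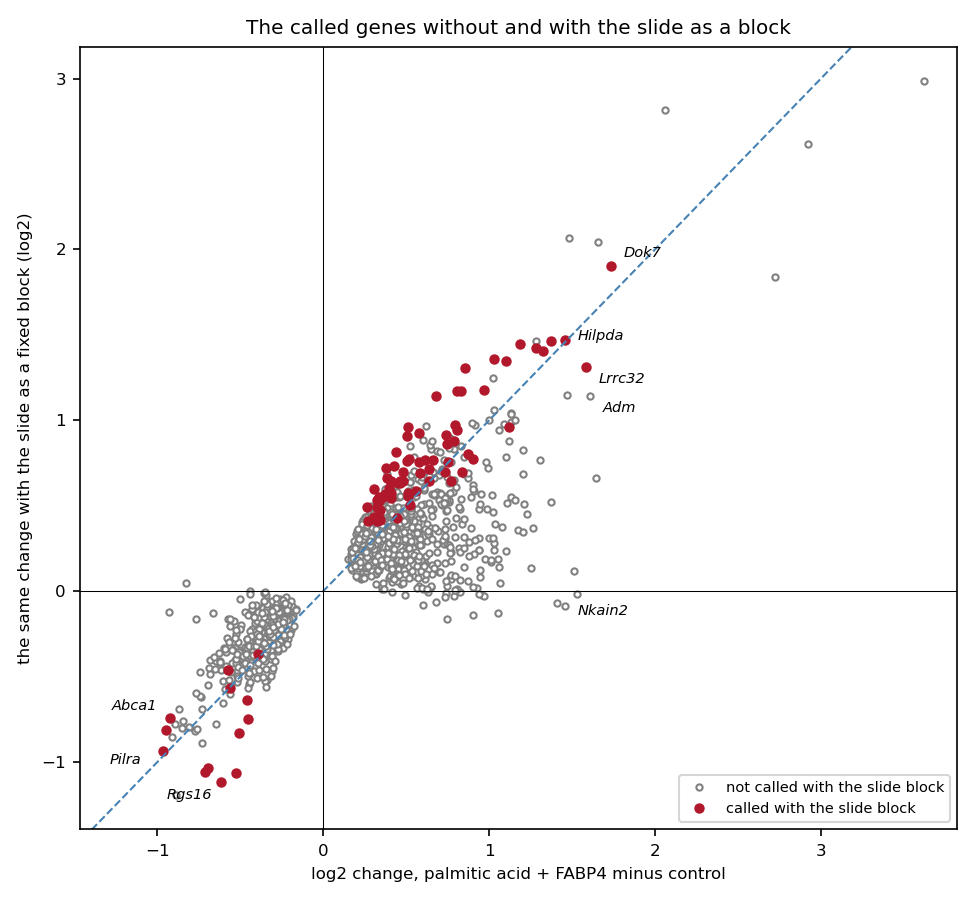
Change of each gene called between palmitic acid plus FABP4 and control (log2, horizontal axis) against its change with the slide as a fixed block (log2, vertical axis), with equal values on the dashed line. Filled points are the 83 genes called in both fits. Dok7, Hilpda and Pilra lie near the line, Adm and Lrrc32 below it, and Nkain2 near 0 on the vertical axis.

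The genes with large rises include Dok7, Lrrc32 and the dim gene Adm. Those with large falls include Pilra, Abcg1, Abca1, Klf2 and Ptger2. Of these, Adm, Klf2 and Ptger2 lost their calls with the slide block, as given below. Dok7, the adaptor that activates the receptor kinase MuSK at the nerve-muscle synapse, had levels of 1.51, 1.51 and 1.62 with palmitic acid plus FABP4, against -0.19, -0.24 and -0.12 in controls. The groups stood far apart, with little spread within each, and the gene rose 3.33-fold (1.73 ± 0.07, adjusted p = 1.07e-06). Lrrc32, also called GARP, which holds latent TGF-beta on the cell surface, had levels of -0.33, -0.32 and -0.28 with palmitic acid plus FABP4, against -2.15, -1.75 and -1.78 in controls. All treated arrays lay above all controls, of which array 1 was the lowest, and the gene rose 3.00-fold (1.59 ± 0.12, adjusted p = 1.35e-04). Hbegf, which encodes a growth factor that binds the EGF receptor, had levels of 1.03, 1.14 and 1.24 with palmitic acid plus FABP4, against 0.03, 0.0027 and 0.02 in controls. Its groups also stood apart, and the gene rose 2.17-fold (1.12 ± 0.07, adjusted p = 6.97e-05). The calls of these 3 genes held with the slide as a fixed block, at 1.90 ± 0.10, 1.31 ± 0.20 and 0.96 ± 0.12. By the files' mm9 positions the Dok7 probe lies on chromosome 5 at 35423495 to 35423554 and the Lrrc32 probe on chromosome 7 at 105650282 to 105650341.

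Further large rises came from dimmer genes. Gm13889, a predicted gene, rose by 1.19 ± 0.10 (adjusted p = 3.28e-04), Tent5c, which encodes a poly(A) polymerase, by 1.03 ± 0.11 (0.00108), and Fbxo15, an F-box gene of embryonic stem cells, by 1.10 ± 0.11 (6.74e-04), and all 3 calls held with the slide block (1.45 ± 0.17, 1.36 ± 0.16 and 1.35 ± 0.18). Crispld2, which encodes a secreted protein, and AU022793 rose by 1.21 ± 0.14 (0.00185) and 1.13 ± 0.14 (0.00223), but with the slide block they had 0.69 ± 0.18 and 1.03 ± 0.26 (adjusted p = 0.114 and 0.109). The defensin gene Defb45 rose by 2.73 ± 0.49 (0.0103) and had levels of -0.86, -1.81 and -0.51 with palmitic acid plus FABP4, against -3.44, -4.85 and -3.06 in controls. It was above background on 3 treated arrays and 1 control array, its treated levels spread widely, and its call ended with the slide block (1.84 ± 0.85, adjusted p = 0.301). Nkain2 and Vmn1r48, above background on 1 control array each, rose by 1.46 ± 0.37 and 1.41 ± 0.35, but both calls ended whichever of the 6 arrays was left out (adjusted p up to 0.126 and 0.123) and both values turned with the slide block (-0.09 ± 0.34 and -0.07 ± 0.32). Bdnf, the neurotrophin gene, rose by 1.13 ± 0.23 (0.0181), which ended without treated array 1 (adjusted p = 0.0702), without 1 further array and with the slide block (0.99 ± 0.44).

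In 45 called genes no control array was above background, so that their rises are bounds, from at least 1.15-fold to at least 4.04-fold, and 0 of these calls held with the fixed slide block. They passed the filter on dim probes through a group other than the controls, so their p-values set signal against background levels. The non-coding gene 4930565N06Rik was at least 3.70-fold higher (adjusted p = 0.00349), with measured levels of -1.48, -0.54 and -3.06 with palmitic acid plus FABP4, against -5.23, -5.45 and -5.26 in controls. Its treated arrays were all above background and differed among themselves by more than 2.5 on the log2 scale. Csmd1 was likewise at least 2.50-fold higher (0.00591), and both calls ended with the slide block. In 3 called genes no treated array was above background, with falls of at least 1.55-fold to at least 1.70-fold.

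Among the falls, Pilra, an inhibitory receptor of myeloid cells, had levels of 0.89, 1.01 and 0.90 with palmitic acid plus FABP4, against 1.93, 1.88 and 1.86 in controls. All treated arrays were below all controls, and the gene fell by 0.96 ± 0.06 (adjusted p = 6.67e-05). Its other probes had -1.01 (unadjusted p = 6.13e-04), -0.86 (2.84e-05) and, for the dimmest, 0.34 (0.118), so 1 of the 4 probes did not show the fall. Ptger2, which encodes the EP2 receptor of prostaglandin E2, had levels of 0.55, 0.51 and 0.58 with palmitic acid plus FABP4, against 1.41, 1.34 and 1.45 in controls. These groups did not overlap, and the gene fell by 0.85 ± 0.10 (adjusted p = 0.00161). Klf2, a transcription factor that quietens inflammatory genes in myeloid cells, fell by 0.89 ± 0.14 (0.00613), and Fpr1, which encodes the receptor for formylated bacterial peptides, by 0.69 ± 0.09 (0.00274). Nfatc2, a calcium-regulated transcription factor, fell by 0.56 ± 0.05 (4.83e-04), and Id1, an inhibitor of basic helix-loop-helix factors, by 0.58 ± 0.08 (0.00291). With the slide block Pilra and Nfatc2 stayed called (-0.94 ± 0.11 and -0.57 ± 0.09), while Ptger2, Klf2, Fpr1 and Id1 had -0.80 ± 0.18, -0.77 ± 0.26, -0.45 ± 0.13 and -0.44 ± 0.13 (adjusted p = 0.0885, 0.181, 0.144 and 0.138). Rgs16, which switches off G protein signalling, fell by 0.62 ± 0.12 (0.0137) and had -1.12 ± 0.10 with the block. That value holds -0.68 between FABP4 array 1 and the controls and -0.44 within slide 2, and the call ended without 3 of the 6 arrays (adjusted p up to 0.0544, without treated array 3). Lfng, Cyrib, Plbd1, C4b and N4bp3, also among the 12 largest falls, fell by 0.74 ± 0.18, 0.77 ± 0.19, 0.77 ± 0.19, 0.77 ± 0.17 and 0.76 ± 0.15. All 5 ended without 2 or more of the 6 arrays (adjusted p up to 0.120, 0.114, 0.122, 0.0880 and 0.0568) and with the slide block.

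**Figure D2:**
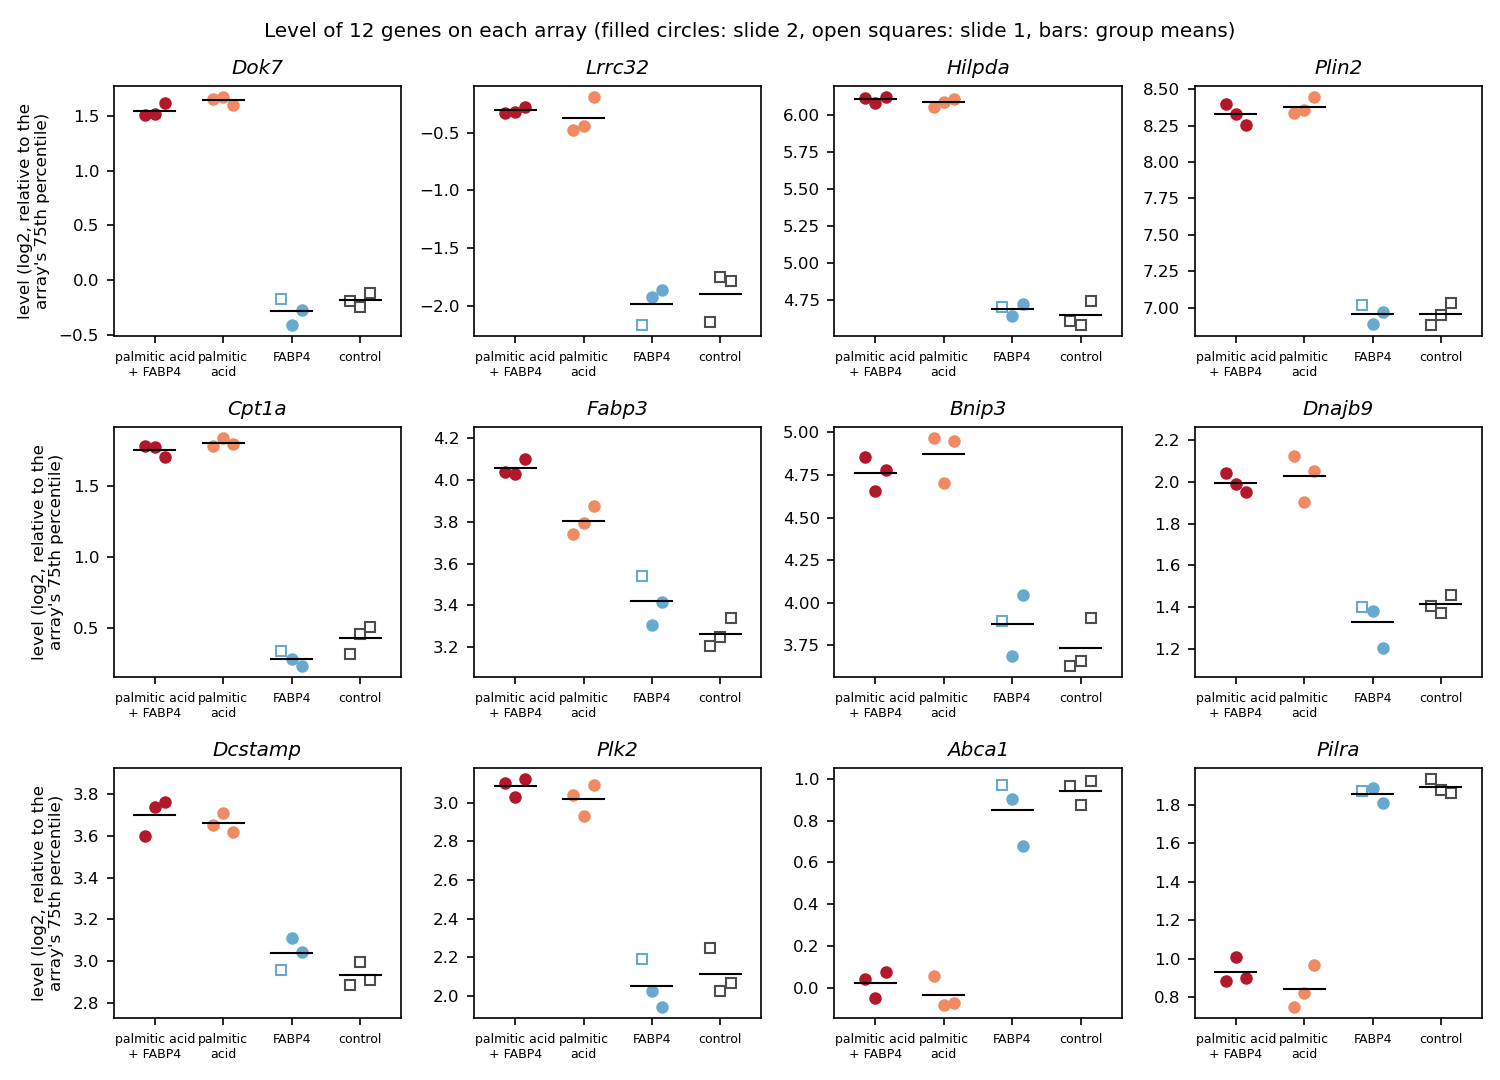
Level of 12 genes on each array (log2 relative to the array's 75th percentile, vertical axes) in cells with palmitic acid plus FABP4, palmitic acid alone, FABP4 alone and neither (control), with bars at the group means of 3 arrays. In these 12 genes, as in all 1323 called genes, the arrays with palmitic acid plus FABP4 do not overlap the controls. FABP4 arrays 2 and 3, which share the slide of the treated arrays, lie near the controls.

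Some genes of lipid droplet coats and fatty acid binding rose, while genes of triglyceride synthesis, lipolysis and mitochondrial oxidation gave 0 calls. Of 15 tested lipid droplet and triglyceride genes, 2 rose and 0 fell (13.3%, against 7.52% of all genes), both of them among the 6 coat genes. The list median was 0.04, against 0.037 over all genes. Hilpda, a droplet protein that restrains the lipase ATGL and is induced by fatty acids and by hypoxia, had levels of 6.12, 6.08 and 6.12 with palmitic acid plus FABP4, against 4.61, 4.58 and 4.75 in controls. The 3 treated arrays agreed closely and lay far above the controls, and the gene rose 2.75-fold (1.46 ± 0.05, adjusted p = 1.04e-06). Plin2, the main droplet coat protein of macrophages, had levels of 8.40, 8.33 and 8.26 with palmitic acid plus FABP4, against 6.88, 6.95 and 7.03 in controls. No treated array came near a control, and the gene rose 2.59-fold (1.37 ± 0.06, adjusted p = 2.35e-06). Plin3, another coat protein, had 0.18 (adjusted p = 0.123), and Dgat2, which makes triglyceride, -0.14 (0.241). The Hilpda and Plin2 calls held with the slide block (1.47 ± 0.09 and 1.46 ± 0.11).

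Of 21 tested fatty acid oxidation genes and PPAR targets, 2 rose and 0 fell (median -0.01), a share of 9.52%, near the 7.52% of all genes. Cpt1a, the gate for long-chain fatty acids into mitochondria, had levels of 1.78, 1.77 and 1.70 with palmitic acid plus FABP4, against 0.32, 0.46 and 0.51 in controls. The treated arrays stood clear of the controls, and the gene rose 2.50-fold (1.32 ± 0.06, adjusted p = 2.27e-06), a call that held with the slide block (1.40 ± 0.10). Pparg, which encodes the lipid-sensing receptor PPAR gamma, rose by 0.35 ± 0.06 (0.0106), and with the block it had 0.37 ± 0.12 (adjusted p = 0.161). The 10 enzymes of mitochondrial oxidation gave 0 calls and a median of -0.02.

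Of 13 tested genes for fatty acid binding, uptake and activation, 3 rose and 0 fell, all of them binding proteins. Fabp3, the heart-type binding protein, had levels of 4.04, 4.03 and 4.10 with palmitic acid plus FABP4, against 3.21, 3.25 and 3.34 in controls. The groups did not overlap, and the gene rose 1.73-fold (0.79 ± 0.07, adjusted p = 2.52e-04). Fabp4, the cells' own copy of the added protein, had levels of 2.39, 2.33 and 2.39 with palmitic acid plus FABP4, against 1.65, 1.60 and 1.64 in controls. These groups stood apart too, and the gene rose 1.67-fold (0.74 ± 0.07, adjusted p = 7.12e-04). Both calls held with the slide block (0.97 ± 0.10 and 0.91 ± 0.12). Fabp5, the epidermal type, rose by 0.26 ± 0.06 (0.0316), a call that ended whichever of the 6 arrays was left out (adjusted p up to 0.102) and with the block (0.43 ± 0.08, adjusted p = 0.0559). The acyl-CoA synthetase gene Acsl3 had -0.29 (0.0502), and the 4 tested uptake genes had a median of 0.02 with 0 calls.

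Of 5 tested cholesterol exporters 2 fell, and of 15 fatty acid synthesis and desaturation genes 4 fell. Of 13 tested LXR targets and efflux genes, 2 fell, 1 rose and 10 did not pass (median -0.07). Abca1, which loads cholesterol onto apolipoprotein A-I, had levels of 0.04, -0.05 and 0.07 with palmitic acid plus FABP4, against 0.97, 0.88 and 0.99 in controls. The controls were all higher than the treated arrays, and the gene fell by 0.92 ± 0.08 (adjusted p = 2.52e-04). Abcg1, which exports cholesterol to high-density lipoprotein, had levels of 2.30, 2.28 and 2.40 with palmitic acid plus FABP4, against 3.23, 3.28 and 3.31 in controls. Its groups were as clearly apart, and the gene fell by 0.95 ± 0.07 (adjusted p = 1.05e-04). Both calls held with the slide block (-0.74 ± 0.13 and -0.81 ± 0.11). Cd5l, which encodes a secreted macrophage protein, rose by 0.74 ± 0.12 (0.00652), was above background on 1 control array and had 0.47 ± 0.19 with the block (adjusted p = 0.253). Nr1h3, which encodes LXR alpha itself, had -0.22 ± 0.06 (0.0703). Mylip, an LXR target that degrades the LDL receptor, had levels of -1.15, -1.04 and -1.13 with palmitic acid plus FABP4, against -0.26, -0.32 and -0.30 in controls. These levels did not overlap, but the share of all genes without overlap is not given here, so the order alone does not show a fall. The fit over 12 arrays gave -0.81 ± 0.48 and adjusted p = 0.318. Its SE draws on the spread in all 4 groups, and array 1 with palmitic acid alone stood at 1.15. Fitted on the 6 compared arrays only, the gene passed (adjusted p = 0.00283), and in the other alternatives it did not.

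Of 15 tested fatty acid synthesis and desaturation genes, 4 fell and 0 rose (median -0.16). Acaca, which makes malonyl-CoA, had levels of 3.17, 3.21 and 3.12 with palmitic acid plus FABP4, against 3.71, 3.74 and 3.77 in controls. Treated and control arrays did not overlap, and the gene fell by 0.57 ± 0.05 (adjusted p = 2.66e-04). Scd2, a stearoyl-CoA desaturase, had levels of 3.87, 3.75 and 3.86 with palmitic acid plus FABP4, against 4.46, 4.49 and 4.56 in controls. Again the groups did not overlap, and the gene fell by 0.68 ± 0.08 (adjusted p = 0.00129). Fasn, which builds palmitate from malonyl-CoA, fell by 0.84 ± 0.11 (0.00274), and the elongase gene Elovl6 by 0.56 ± 0.12 (0.0202). Srebf1, which encodes SREBP-1, the factor that drives these genes, had -0.57 ± 0.30 (0.258), with control levels that ranged from -1.24 to 0.17. Acaca stayed called with the slide block (-0.46 ± 0.08), and Scd2, Fasn and Elovl6 had -0.48 ± 0.12, -0.76 ± 0.20 and -0.20 ± 0.17 (adjusted p = 0.101, 0.119 and 0.559). The Elovl6 call also ended without 4 of the 6 arrays (adjusted p up to 0.0673, without control array 1).

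Cholesterol biosynthesis genes gave 2 rises and 1 fall among 26 tested (11.5%, against 7.52% of all genes), with a median of 0.12. Srebf2, the regulator of that pathway, rose by 0.47 ± 0.07 (0.00407) on its brighter probe and had 0.03 on the other (unadjusted p = 0.624). Stard4, a sterol carrier, rose by 0.29 ± 0.05 (0.0100) on its brighter probe and had -0.25 on the other (unadjusted p = 0.00140), so its probes disagree. The Srebf2 and Stard4 calls ended with the slide block (0.46 ± 0.12 and 0.30 ± 0.09). Of 19 tested sphingolipid genes 1 rose and 2 fell. Sphk1, the kinase that makes sphingosine 1-phosphate, had levels of 1.14, 1.04 and 1.06 with palmitic acid plus FABP4, against 0.30, 0.28 and 0.39 in controls. The treated arrays were all higher, and the gene rose 1.69-fold (0.76 ± 0.07, adjusted p = 4.83e-04), with 0.63 ± 0.12 with the block (adjusted p = 0.0538). The ceramide synthase genes Cers4 and Cers5 fell by 0.47 ± 0.07 (0.00436) and 0.24 ± 0.04 (0.0120). Both calls ended with the block (-0.42 ± 0.12 and -0.17 ± 0.08), and the Cers5 call ended without 2 of the 6 arrays (adjusted p up to 0.0543, without treated array 2).

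Several hypoxia targets rose, and the labels describe no low oxygen. Of 17 tested genes of the hypoxia response, 6 rose and 0 fell (35.3%), all among its 14 targets, with a list median of 0.29. Bnip3, a mitophagy receptor, had levels of 4.86, 4.65 and 4.78 with palmitic acid plus FABP4, against 3.63, 3.66 and 3.91 in controls. The treated arrays all lay above the controls, and the gene rose 2.04-fold (1.03 ± 0.11, adjusted p = 0.00124). Adm, which encodes the vasodilator peptide adrenomedullin, had levels of -1.61, -2.13 and -1.67 with palmitic acid plus FABP4, against -3.59, -3.36 and -3.29 in controls. The signal was dim, with 2 of 3 control arrays above background, and the gene rose 3.05-fold (1.61 ± 0.20, adjusted p = 0.00252). Ndrg1, a hypoxia-inducible gene linked to growth arrest, had levels of 5.58, 5.54 and 5.53 with palmitic acid plus FABP4, against 4.78, 4.91 and 4.97 in controls. Its groups were clearly apart, and the gene rose 1.58-fold (0.66 ± 0.06, adjusted p = 4.83e-04). Bnip3l, the relative of Bnip3, rose by 0.40 ± 0.06 (0.00652), Ero1a, the oxidase that forms disulfides in the endoplasmic reticulum, by 0.51 ± 0.12 (0.0326), and the angiogenic factor gene Vegfa by 0.29 ± 0.06 (0.0203). The genes of the oxygen-regulated subunits, Hif1a and Epas1, had -0.06 and 0.03, and neither passed. P4ha2, a collagen hydroxylase, was at least 1.30-fold higher but did not pass (adjusted p = 0.180), with 2 of 3 treated arrays and 0 control arrays above background.

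Ndrg1 and Ero1a stayed called with the slide block (0.77 ± 0.11 and 0.91 ± 0.16), while Bnip3, Adm, Bnip3l and Vegfa had 1.06 ± 0.21, 1.14 ± 0.34, 0.45 ± 0.11 and 0.27 ± 0.11 (adjusted p = 0.0610, 0.140, 0.107 and 0.260). Ero1a had 0.51 without the block, and its growth with the block rests on FABP4 array 1. Leaving out 1 array gave 4 or 5 called members. The Ero1a call ended whichever of the 6 arrays was left out (adjusted p up to 0.105) and that of Vegfa without 5 of them (up to 0.0766, without treated array 2). The median of the list's members relative to the control mean was 0.27, 0.33 and 0.33 on the treated arrays, and -0.02, -0.05 and 0.04 on the controls. It was 0.30, 0.27 and 0.44 with palmitic acid alone, and 0.12, -0.08 and -0.03 with FABP4 alone. The control values lie near 0 because their own mean was subtracted. The treated values show the list median array by array and are no separate test.

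Hypoxia-inducible factors bind a short element whose core is ACGTG or GCGTG. The promoters of 3 of the genes that rose most are shown because they carry this core within 250 bases before and 50 bases after the start, as RefSeq gives them on GRCm38.p6, read 5′ to 3′ on the gene's strand with each core match on either strand in capitals. Of 168 genes picked for naming, 127 had a promoter in that table. Bnip3 lies on the minus strand at chr7:138909457-138909756, with 5 matches of which 2 overlap each other, Adm on the plus strand at chr7:110627407-110627706 with 2, of which 1 overlaps a match to the antioxidant element (TGAC, any 3 bases, GC), and Hilpda, for the later of its 2 listed starts, on the plus strand at chr6:29272376-29272675 with 3.
Bnip3: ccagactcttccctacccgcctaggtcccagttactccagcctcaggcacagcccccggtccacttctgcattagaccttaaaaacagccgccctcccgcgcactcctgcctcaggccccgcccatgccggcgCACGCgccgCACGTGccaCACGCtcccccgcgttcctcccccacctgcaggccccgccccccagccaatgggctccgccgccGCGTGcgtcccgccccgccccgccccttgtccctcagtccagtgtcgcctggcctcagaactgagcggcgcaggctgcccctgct
Adm: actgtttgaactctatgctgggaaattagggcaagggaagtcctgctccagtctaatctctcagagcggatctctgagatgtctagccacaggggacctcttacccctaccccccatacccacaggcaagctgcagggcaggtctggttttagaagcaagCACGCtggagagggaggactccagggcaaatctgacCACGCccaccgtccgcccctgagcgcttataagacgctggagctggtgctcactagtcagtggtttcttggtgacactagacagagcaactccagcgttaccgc
Hilpda: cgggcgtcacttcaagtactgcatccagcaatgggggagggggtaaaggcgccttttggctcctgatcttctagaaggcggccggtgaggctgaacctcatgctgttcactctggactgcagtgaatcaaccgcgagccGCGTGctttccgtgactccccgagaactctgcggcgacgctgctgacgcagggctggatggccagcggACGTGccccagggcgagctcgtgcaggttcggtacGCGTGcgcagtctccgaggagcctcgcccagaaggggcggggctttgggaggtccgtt
The core is common. It occurs in 43.8% of all 32851 promoters of this length, in 77.8% of the 18 promoters of the tested hypoxia genes and in 76.2% of the 21 promoters of tested unfolded protein response genes. A match describes the letters only.

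Glycolysis genes gave 4 rises and 0 falls among 18 tested (median 0.13), with 14 not passed. Slc16a3, the lactate exporter MCT4, had levels of 6.07, 5.95 and 5.92 with palmitic acid plus FABP4, against 5.54, 5.47 and 5.64 in controls. The groups did not overlap, and the gene rose 1.35-fold (0.43 ± 0.07, adjusted p = 0.00905). Pdk1, which slows pyruvate entry into the citric acid cycle, rose by 0.66 ± 0.13 (0.0142), and the glycolytic enzyme genes Pfkl and Tpi1 by 0.48 ± 0.10 (0.0189) and 0.25 ± 0.07 (0.0469). With the slide block 0 of the 4 were called, at 0.33 ± 0.13, 0.48 ± 0.23, 0.49 ± 0.19 and 0.34 ± 0.12. The calls of Pdk1 and Pfkl ended without 3 and 4 of the 6 arrays (adjusted p up to 0.0586, without control array 1, and 0.0732, without treated array 1) and that of Tpi1 whichever was left out (up to 0.156), and leaving out 1 array gave 1 to 3 called members. Of 29 oxidative phosphorylation genes 0 were called by limma, with a median of 0.05, while 4419 genes in all had an unadjusted p below 0.05.

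**Figure D3:**
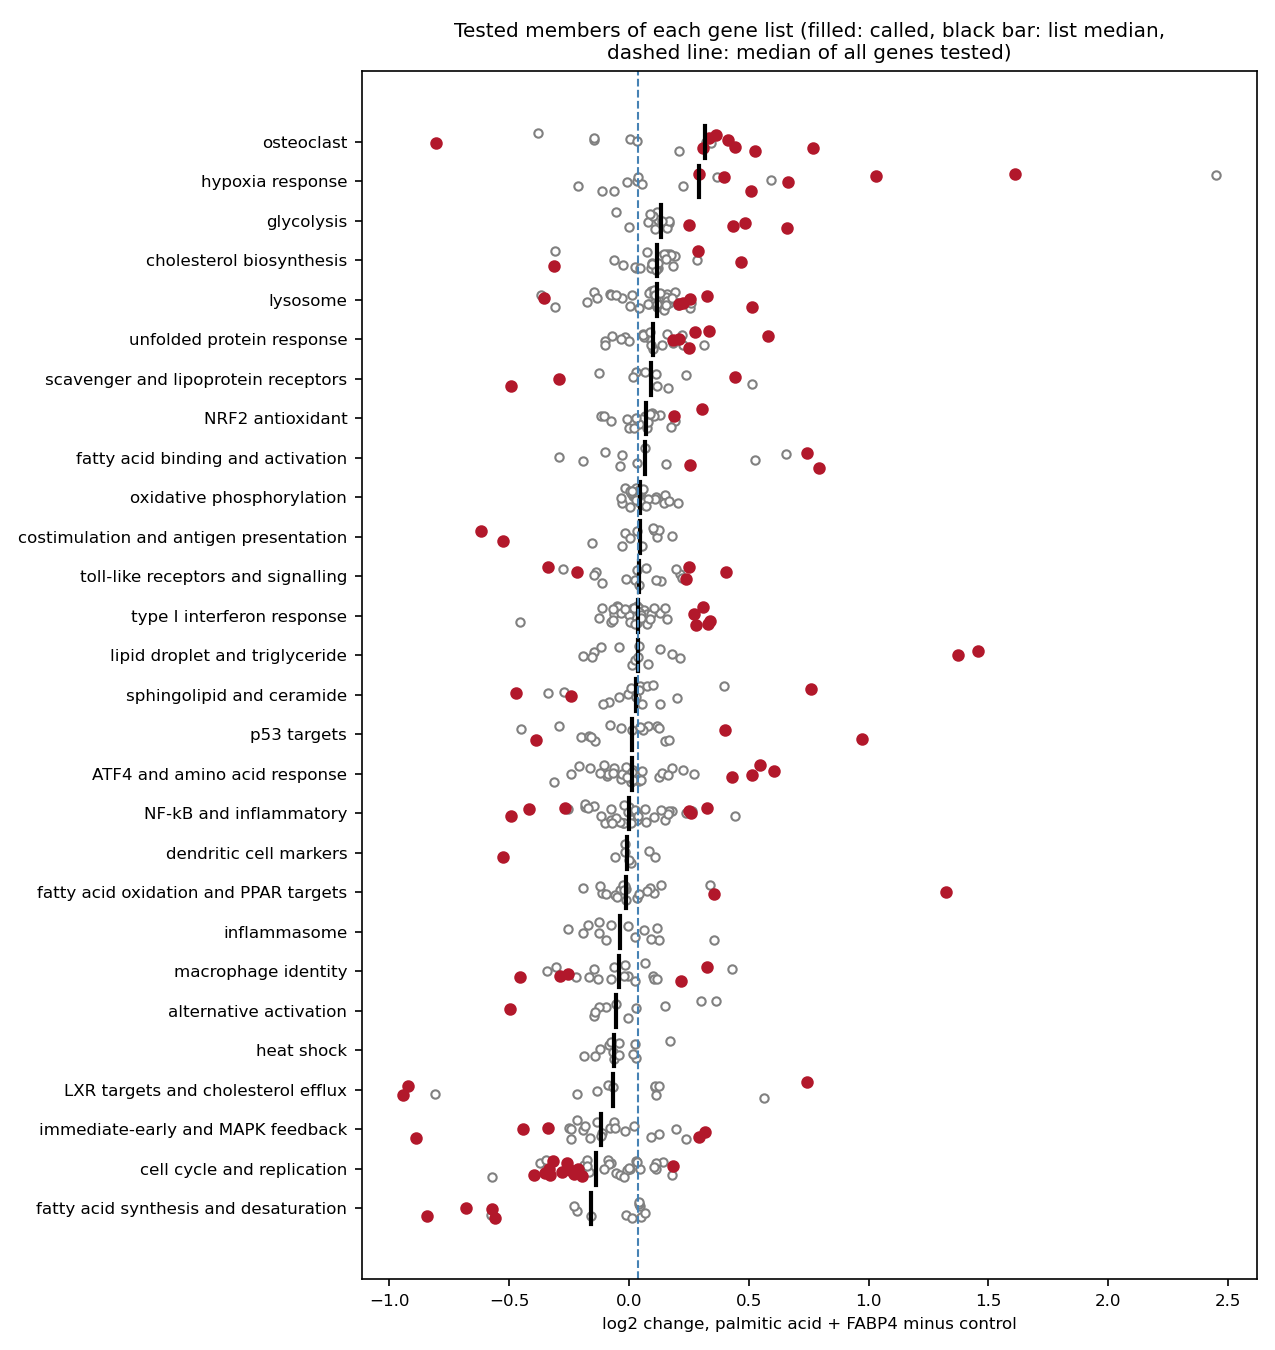
Change between palmitic acid plus FABP4 and control (log2, horizontal axis) for the tested members of the gene lists with at least 5 tested members (vertical axis), with filled points for called genes, black bars for list medians and a dashed line at the median of all genes, 0.037. Osteoclast and hypoxia genes have the highest medians, 0.32 and 0.29, and fatty acid synthesis genes the lowest, -0.16.

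Some stress genes of the endoplasmic reticulum rose. Of 25 tested genes of the unfolded protein response 6 rose, 0 fell and 19 did not pass (median 0.10). Dnajb9, a cofactor of the chaperone BiP, had levels of 2.04, 1.99 and 1.95 with palmitic acid plus FABP4, against 1.41, 1.37 and 1.46 in controls. Each treated array was above each control, and the gene rose 1.50-fold (0.58 ± 0.07, adjusted p = 0.00203). Hspa5, which encodes BiP itself, had levels of 8.25, 8.29 and 8.32 with palmitic acid plus FABP4, against 8.07, 8.02 and 8.03 in controls. The step was small and the groups did not overlap, and the gene rose 1.19-fold (0.25 ± 0.05, adjusted p = 0.0169). The disulfide isomerase gene P4hb rose by 0.33 ± 0.06 (0.00915), and Creld2, Manf and Sdf2l1, which encode resident or secreted proteins of the endoplasmic reticulum, by 0.27 ± 0.05, 0.21 ± 0.05 and 0.18 ± 0.04 (0.0115, 0.0447 and 0.0289). The sensors Ern1, Eif2ak3 and Atf6 had 0.09, 0.10 and -0.02 and did not pass. Dnajb9 stayed called with the slide block (0.69 ± 0.12), and Hspa5, P4hb, Creld2, Manf and Sdf2l1 had 0.36 ± 0.08, 0.33 ± 0.11, 0.38 ± 0.08, 0.36 ± 0.08 and 0.18 ± 0.07. Calls ended without control array 1 for Creld2 (adjusted p = 0.0516), without 4 of the 6 arrays for Hspa5 (up to 0.0625, without treated array 3) and whichever array was left out for Manf and Sdf2l1 (up to 0.137 and 0.108), so that leaving out 1 array gave 3 or 4 called members.

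The factors ATF6 and XBP1 act through the endoplasmic reticulum stress element, CCAAT followed after 9 bases of any kind by CCACG, which was sought on both strands. It stands in 0.119% of all 32851 promoters of 300 bases and in 9 of the 21 promoters of tested unfolded protein response genes (42.9%). Among the 5 promoters of called genes of that list it stands in 2 (40%). Its presence thus did not set the genes that rose apart from the tested list. Hspa5 and Creld2 are shown because both rose and both carry 1 match, in capitals, from RefSeq on GRCm38.p6. Hspa5 lies on the plus strand at chr2:34771840-34772139, and Creld2 on the plus strand at chr15:88819396-88819695, where the match is on the other strand. Neither match overlaps another motif sought.
Hspa5: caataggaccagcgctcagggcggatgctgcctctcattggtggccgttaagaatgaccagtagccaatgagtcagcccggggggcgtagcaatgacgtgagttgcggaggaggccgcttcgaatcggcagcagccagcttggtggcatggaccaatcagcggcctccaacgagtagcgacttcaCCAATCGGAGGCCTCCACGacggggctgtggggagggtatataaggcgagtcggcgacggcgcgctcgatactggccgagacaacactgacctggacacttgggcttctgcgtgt
Creld2: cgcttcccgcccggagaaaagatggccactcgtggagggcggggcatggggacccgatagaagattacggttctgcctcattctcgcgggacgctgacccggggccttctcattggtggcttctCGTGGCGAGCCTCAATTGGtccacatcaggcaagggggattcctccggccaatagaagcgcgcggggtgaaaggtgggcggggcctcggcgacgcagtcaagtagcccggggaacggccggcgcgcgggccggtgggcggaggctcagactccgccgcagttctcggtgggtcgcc

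Of 33 tested ATF4 and amino acid response genes 4 rose and 0 fell (12.1%, against 7.52% of all genes), with a median of 0.01, against 0.037 over all genes. Atf3, a stress-induced transcription factor, had levels of 7.24, 7.19 and 7.17 with palmitic acid plus FABP4, against 6.71, 6.65 and 6.70 in controls. The treated arrays were all higher, and the gene rose 1.43-fold (0.51 ± 0.04, adjusted p = 2.52e-04). Ppp1r15a, the GADD34 subunit that restarts translation after stress, had levels of 5.43, 5.30 and 5.30 with palmitic acid plus FABP4, against 4.85, 4.69 and 4.84 in controls. These groups were as distinct, and the gene rose 1.46-fold (0.55 ± 0.06, adjusted p = 0.00124). Slc3a2, the heavy chain of amino acid transporters, rose by 0.43 ± 0.06 (0.00291), and the stress cytokine gene Gdf15 by 0.60 ± 0.13 (0.0199), a call that ended without 4 of the 6 arrays (adjusted p up to 0.0770, without treated array 1). Ddit3, which encodes CHOP, Trib3 and Asns had 0.22, 0.05 and 0.04 and did not pass. Atf3 stayed called with the slide block (0.58 ± 0.07), and Ppp1r15a, Slc3a2 and Gdf15 had 0.55 ± 0.11, 0.45 ± 0.10 and 0.89 ± 0.21 (adjusted p = 0.0600, 0.0823 and 0.0941). Of 20 tested NRF2 genes 2 rose and 0 fell (10%, near the 7.52% of all genes), Srxn1 by 0.30 ± 0.07 and Prdx1 by 0.19 ± 0.04, both antioxidant enzymes. These calls ended without 5 and 6 of the 6 arrays (adjusted p up to 0.114 and 0.0970) and with the slide block (0.28 ± 0.14 and 0.19 ± 0.07). Of 13 heat shock genes 0 were called by limma, with a median of -0.06.

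Osteoclast genes held the largest share of calls among the lists with 10 or more tested members, 8 of 16 tested (50.0%, against 7.52% of all genes), with 7 rises, 1 fall and a median of 0.32. Dcstamp, required for the fusion of osteoclast precursors, had levels of 3.60, 3.74 and 3.77 with palmitic acid plus FABP4, against 2.89, 3.00 and 2.91 in controls. All treated arrays exceeded all controls, and the gene rose 1.70-fold (0.77 ± 0.06, adjusted p = 2.24e-04). Ocstamp, its partner in fusion, rose by 0.44 ± 0.08 (0.0119). Ctsk, the collagen-degrading protease of osteoclasts, had levels of 3.19, 3.28 and 3.24 with palmitic acid plus FABP4, against 2.83, 2.83 and 2.81 in controls. The 3 controls were nearly equal, below every treated array, and the gene rose 1.33-fold (0.41 ± 0.07, adjusted p = 0.0100). The proton pump subunit genes Atp6v0d2 and Tcirg1 rose by 0.53 ± 0.08 (0.00668) and 0.31 ± 0.06 (0.0190), the carbonic anhydrase gene Car2 by 0.36 ± 0.06 (0.00762) and the chloride transporter gene Clcn7 by 0.34 ± 0.06 (0.0114). The gelatinase gene Mmp9 went the other way and fell by 0.81 ± 0.12 (0.00480), with 2 of 3 treated arrays above background. The 4 regulators tested gave 0 calls, with Nfatc1, which drives osteoclast formation, at -0.38.

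With the slide block Dcstamp stayed called (0.65 ± 0.10), and the other calls of the list ended. Atp6v0d2, Ctsk and Car2 were larger with a wider error (0.64 ± 0.15, 0.59 ± 0.12 and 0.42 ± 0.11), and Mmp9 was about the same with a wider error (-0.79 ± 0.22). Ocstamp, Clcn7 and Tcirg1 were smaller (0.14 ± 0.09, 0.21 ± 0.10 and 0.25 ± 0.12). Leaving out 1 array gave 6 or 7 called rises. The call that ended in these fits was that of Tcirg1, without 3 of the 6 arrays (adjusted p up to 0.0747, without control array 1). Relative to the control mean the list's median was 0.28, 0.32 and 0.29 on the treated arrays, and -0.05, 0.03 and -0.0022 on the controls. It was 0.22, 0.08 and 0.36 with palmitic acid alone, and -0.0020, -0.01 and -0.06 with FABP4 alone. Here too the subtraction of their own mean holds the controls near 0, so the gap is no separate test.

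Of 46 tested lysosome genes 5 rose, 1 fell and 40 did not pass (13.0% called, against 7.52% of all genes), with a median of 0.12. Gpnmb, a lysosomal glycoprotein that rises when macrophages take up lipid, had levels of 6.41, 6.35 and 6.35 with palmitic acid plus FABP4, against 5.82, 5.88 and 5.86 in controls. The groups did not overlap, and the gene rose 1.43-fold (0.51 ± 0.05, adjusted p = 6.74e-04), with 0.42 ± 0.08 with the slide block (adjusted p = 0.0590). Cd68, a lysosomal glycoprotein used as a macrophage marker, rose by 0.33 ± 0.06 (0.00847), the autophagy receptor gene Sqstm1 by 0.26 ± 0.06, and the hydrolase genes Gusb and Ctsa by 0.23 ± 0.05 and 0.21 ± 0.05, while the protease gene Ctsc fell by 0.36 ± 0.08. Of these, Cd68 passed whichever array was left out, whereas Gusb, Ctsa and Ctsc ended without each of the 6 arrays and Sqstm1 without 4 (adjusted p up to 0.0847, 0.0831, 0.112 and 0.105). All 6 calls ended with the block. Trem2, a lipid-sensing receptor of macrophages that was chosen after its values were seen, had levels of 5.08, 5.22 and 5.13 with palmitic acid plus FABP4, against 4.54, 4.56 and 4.59 in controls. Treated and control arrays were apart, and the gene rose 1.50-fold (0.58 ± 0.06, adjusted p = 0.00124), a call that held with the block (0.76 ± 0.09).

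Inflammatory genes did not move in 1 direction. Of 39 tested NF-kB and inflammatory genes 3 rose, 3 fell and 33 did not pass (median -0.0011), among them Tnf at -0.18, Il6 at 0.03, Il1b at -0.07 and Nos2 at 0.02. The even split depends on the processing. Quantile normalization gave 4 rises and 9 falls, and a percentile set by probes above background on every array 4 and 7. Keeping only probes above background on all 12 arrays gave 4 rises and 3 falls. With palmitic acid alone 2 rose and 6 fell. Csf2, which encodes the growth factor GM-CSF, had levels of 1.67, 1.71 and 1.57 with palmitic acid plus FABP4, against 2.10, 2.22 and 2.11 in controls. The controls were all higher, and the gene fell by 0.49 ± 0.07 (adjusted p = 0.00339). Lcn2, an acute-phase protein that binds bacterial siderophores, had levels of 6.88, 6.89 and 6.75 with palmitic acid plus FABP4, against 7.26, 7.28 and 7.24 in controls. The same order held, and the gene fell by 0.42 ± 0.06 (adjusted p = 0.00613). Nfkbiz, a nuclear regulator of NF-kB, fell by 0.27 ± 0.05 (0.0141), and Csf3, which encodes G-CSF, rose by 0.33 ± 0.06 (0.00851). Clec4e, the Mincle receptor, and Csf1, which encodes M-CSF, rose by 0.26 ± 0.06 and 0.25 ± 0.06, calls that ended whichever array was left out (adjusted p up to 0.0955 and 0.140), while that of Nfkbiz ended without 3 of them (up to 0.0605). All 6 calls ended with the slide block, where Csf2, Lcn2 and Csf3 had -0.44 ± 0.12, -0.46 ± 0.12 and 0.24 ± 0.10. Of 14 inflammasome genes limma called 0 (2 lower with the block), with Nlrp3 at -0.12.

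Of 19 tested genes of Toll-like receptors and their signalling 3 rose and 2 fell. Tlr13, which senses bacterial ribosomal RNA, had levels of 3.81, 3.85 and 3.81 with palmitic acid plus FABP4, against 3.40, 3.35 and 3.50 in controls. The groups were apart, and the gene rose 1.33-fold (0.41 ± 0.06, adjusted p = 0.00480), a call that held with the block (0.58 ± 0.09). Tlr7 and Tlr6 rose by 0.25 ± 0.06 and 0.24 ± 0.05, the inhibitory kinase gene Irak3 fell by 0.34 ± 0.06 and the adaptor gene Tirap by 0.22 ± 0.05. These 4 calls ended without at least 1 of the 6 arrays (adjusted p up to 0.106, 0.0993, 0.0528 and 0.111) and with the block, and the other probe of Tlr7 had 0.09 (unadjusted p = 0.314). Tlr4, the receptor for lipopolysaccharide, had -0.01.

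Of 36 tested type I interferon genes 5 rose, 0 fell and 31 did not pass (13.9% called, against 7.52% of all genes), with a median of 0.04. Rsad2, which encodes the antiviral enzyme viperin, had levels of 9.07, 9.16 and 9.10 with palmitic acid plus FABP4, against 8.77, 8.80 and 8.84 in controls. The step was small against close replicates, and the gene rose 1.24-fold (0.31 ± 0.05, adjusted p = 0.00747). Igtp, an interferon-induced GTPase, rose by 0.34 ± 0.06 (0.0102), and Trim25, a ubiquitin ligase of RNA sensing, by 0.33 ± 0.05 (0.00759), a call that ended with the block (adjusted p = 0.127). Ifnb1, which encodes interferon beta, and the factor gene Irf5 rose by 0.28 ± 0.07 and 0.27 ± 0.07, and these 2 calls ended without 5 and 6 of the 6 arrays (adjusted p up to 0.106 and 0.139). With the slide block Rsad2 and Igtp stayed called (0.44 ± 0.08 and 0.53 ± 0.08), and Trim25 had 0.36 ± 0.10. Interferon targets such as Ifit1, Isg15 and Mx1 had 0.0045, 0.10 and -0.12 and did not pass.

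Of 24 tested immediate-early and MAPK feedback genes 2 rose and 3 fell. Dusp2, a phosphatase of MAP kinases in activated leukocytes, had levels of 7.03, 7.00 and 6.99 with palmitic acid plus FABP4, against 7.44, 7.46 and 7.46 in controls. All treated arrays were lower, and the gene fell by 0.44 ± 0.05 (adjusted p = 9.95e-04), with -0.32 ± 0.07 with the block (adjusted p = 0.0700). Klf2 is described above, and Dusp6 fell by 0.34 ± 0.08 while Dusp4 and Ier3 rose by 0.29 ± 0.07 and 0.32 ± 0.07. The calls of these last 3 ended whichever array was left out (adjusted p up to 0.102, 0.0915 and 0.0959), and with the block Dusp6 and Ier3 were near 0 (-0.06 ± 0.10 and 0.04 ± 0.08).

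Surface receptors and markers of the macrophage changed in both directions, 2 up and 3 down of 22 tested. Cx3cr1, the receptor for the chemokine fractalkine, had levels of 2.52, 2.61 and 2.54 with palmitic acid plus FABP4, against 3.03, 2.98 and 3.03 in controls. The controls were higher throughout, and the gene fell by 0.46 ± 0.07 (adjusted p = 0.00688), a call that held with the block (-0.63 ± 0.12). The colony-stimulating factor receptor gene Csf1r rose by 0.22 ± 0.05, and the integrin gene Itgam and the factor gene Cebpa fell by 0.26 ± 0.06 and 0.29 ± 0.07, with 5 or 6 of the 6 leave-one-out fits ending each call (adjusted p up to 0.106, 0.112 and 0.138), and all 3 calls ended with the block (0.28 ± 0.09, -0.06 ± 0.08 and -0.16 ± 0.12). Of 12 scavenger and lipoprotein receptors 1 rose and 2 fell, Colec12 by 0.44 ± 0.11, Stab1 by 0.49 ± 0.11 and Axl by 0.29 ± 0.07, all ended without 5 or 6 of the 6 arrays (adjusted p up to 0.119, 0.107 and 0.121) and with the block. Cd36 had 0.07 and Msr1 0.02. Of 11 alternative activation genes 1 fell (9.09%, near the 7.52% of all genes), the chemokine gene Ccl17 by 0.50 ± 0.09 (0.0109), a call that ended with the block (-0.43 ± 0.17).

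Of 14 tested costimulation and antigen presentation genes 2 fell and 0 rose. Icosl, the ligand of the T cell receptor ICOS, had levels of -0.09, -0.16 and -0.50 with palmitic acid plus FABP4, against 0.32, 0.37 and 0.41 in controls. Treated array 3 was the lowest, no treated array reached a control, and the gene fell by 0.62 ± 0.10 (adjusted p = 0.00613), with -0.46 ± 0.17 with the block (adjusted p = 0.212). Cd80, a ligand of CD28, fell by 0.53 ± 0.13 (0.0412), a call that ended whichever array was left out (adjusted p up to 0.122). Its value with the block was -1.06 ± 0.13 (adjusted p = 0.0107), made up of -0.74 between FABP4 array 1 and the controls and -0.32 within slide 2.

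Some mitotic genes fell with palmitic acid plus FABP4 in the fit without a slide term, and 0 were called with the slide block. Of 38 tested cell cycle genes 11 fell and 1 rose. The falls were 8 of 15 mitosis genes, all 15 of which had values below 0 (median -0.21), 1 of 16 replication genes and 2 cyclin D genes. Ccna2, the cyclin of S phase and early mitosis, had levels of 1.44, 1.52 and 1.38 with palmitic acid plus FABP4, against 1.92, 1.77 and 1.84 in controls. The groups did not overlap, and the gene fell by 0.40 ± 0.07 (adjusted p = 0.0102). Ccnb1, the cyclin that drives entry into mitosis, had levels of 2.50, 2.41 and 2.49 with palmitic acid plus FABP4, against 2.64, 2.68 and 2.71 in controls. This difference was smaller, and the gene fell by 0.21 ± 0.06 (adjusted p = 0.0496). The kinase gene Plk1, the checkpoint gene Bub1b, the activator gene Cdc20, Ccnb2, Birc5 and the proliferation marker Mki67 fell by 0.33 ± 0.07, 0.25 ± 0.05, 0.33 ± 0.06, 0.26 ± 0.06, 0.28 ± 0.07 and 0.20 ± 0.05, Ccnd1 and Ccnd3 by 0.32 ± 0.07 and 0.23 ± 0.05, and Rrm2, which makes deoxynucleotides, by 0.35 ± 0.09. The cyclin-dependent kinase inhibitor gene Cdkn1b rose by 0.18 ± 0.04. Apart from Ccna2, which passed whichever array was left out, these calls ended without at least 2 of the 6 arrays, with adjusted p up to 0.162 for Ccnb1, and leaving out 1 array gave 1 to 3 called mitosis genes. With the slide block 0 of the 15 mitosis genes were called and their median was -0.05, and with no scaling between arrays 0 were called. Against FABP4 alone, 3 of the 15 fell, and the replication genes had a median of 0.0014 against the controls. With palmitic acid alone, also on slide 2, 10 of the 15 mitosis genes fell against the controls.

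Of 19 tested p53 targets 2 rose and 1 fell. Plk2, a polo-like kinase, had levels of 3.1, 3.03 and 3.12 with palmitic acid plus FABP4, against 2.25, 2.03 and 2.07 in controls. No treated array came near a control, and the gene rose 1.96-fold (0.97 ± 0.08, adjusted p = 2.44e-04). Mdm2, the ubiquitin ligase that restrains p53, had levels of 6.71, 6.73 and 6.82 with palmitic acid plus FABP4, against 6.36, 6.32 and 6.38 in controls. The groups were apart here as well, and the gene rose 1.32-fold (0.40 ± 0.06, adjusted p = 0.00631). Both calls held with the block (1.18 ± 0.12 and 0.61 ± 0.08). Gadd45a fell by 0.39 ± 0.10, which ended without 5 of the 6 arrays (adjusted p up to 0.133) and with the block (-0.23 ± 0.17), and Cdkn1a, Bax and Pmaip1 had 0.11, 0.08 and 0.17 and did not pass.

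Against palmitic acid alone, on the same slide, 0 genes were called by limma (1034 at an unadjusted p under 0.05, lowest adjusted p = 0.378), which bears on what the added FABP4 contributed. Fabp3 was 0.25 ± 0.07 (95% confidence interval 0.10 to 0.40, unadjusted p = 0.00368, adjusted p = 0.806), with levels of 4.04, 4.03 and 4.10 with both agents, against 3.74, 3.79 and 3.88 with palmitic acid alone. The 3 arrays with both agents lay above the 3 with palmitic acid alone, but the difference does not pass. The share of all genes with such an order is not given here, so the order alone does not show a difference. Palmitic acid arrays 1 and 2 lay in row 1 and array 3, the nearest in Fabp3 to the combined arrays, in row 2 with them, and the part of the row was not tested. Fabp4 was 0.19 ± 0.07 (interval 0.02 to 0.35) and Hbegf 0.12 ± 0.07 (interval -0.05 to 0.29). For Dok7, Hilpda, Plin2 and Abca1 the intervals were -0.24 to 0.05, -0.09 to 0.14, -0.19 to 0.08 and -0.12 to 0.23, so a difference of 0.3 in either direction lies outside all 4.

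Among genes with an official symbol, the smallest p-values of that contrast belong to 4930565N06Rik, Defb45, Mrm3 (-0.31 ± 0.06, unadjusted p = 3.22e-04), Fam107a (0.40 ± 0.08, 4.21e-04), Suox (0.28 ± 0.06, 4.88e-04) and Spring1 (-0.30 ± 0.06, 5.34e-04). Neither 4930565N06Rik nor Defb45 was above background on any array with palmitic acid alone, so no size is given for them. Their p-values in that contrast set signal against background levels.

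The changes of palmitic acid alone and FABP4 alone from the controls, which share the control arrays with the combined treatment, stand beside it as follows. Dok7 had 1.73 ± 0.07 with palmitic acid plus FABP4, 1.83 ± 0.07 with palmitic acid and -0.10 ± 0.07 with FABP4. Hilpda had 1.46 ± 0.05, 1.44 ± 0.05 and 0.04 ± 0.05 in the same order, and Abca1 -0.92 ± 0.08, -0.98 ± 0.08 and -0.09 ± 0.08. For these 3 genes FABP4 alone was near 0. Fabp3 had 0.79 ± 0.07, 0.54 ± 0.07 and 0.16 ± 0.07, and Lrrc32 1.59 ± 0.12, 1.52 ± 0.12 and -0.09 ± 0.12. In all, 1323 genes were called with both agents, 1515 with palmitic acid (8.61%), 858 higher (4.88%) and 657 lower (3.73%), and 3 with FABP4 (0.017%), 2 higher (0.0114%) and 1 lower (0.00568%).

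**Figure D4:**
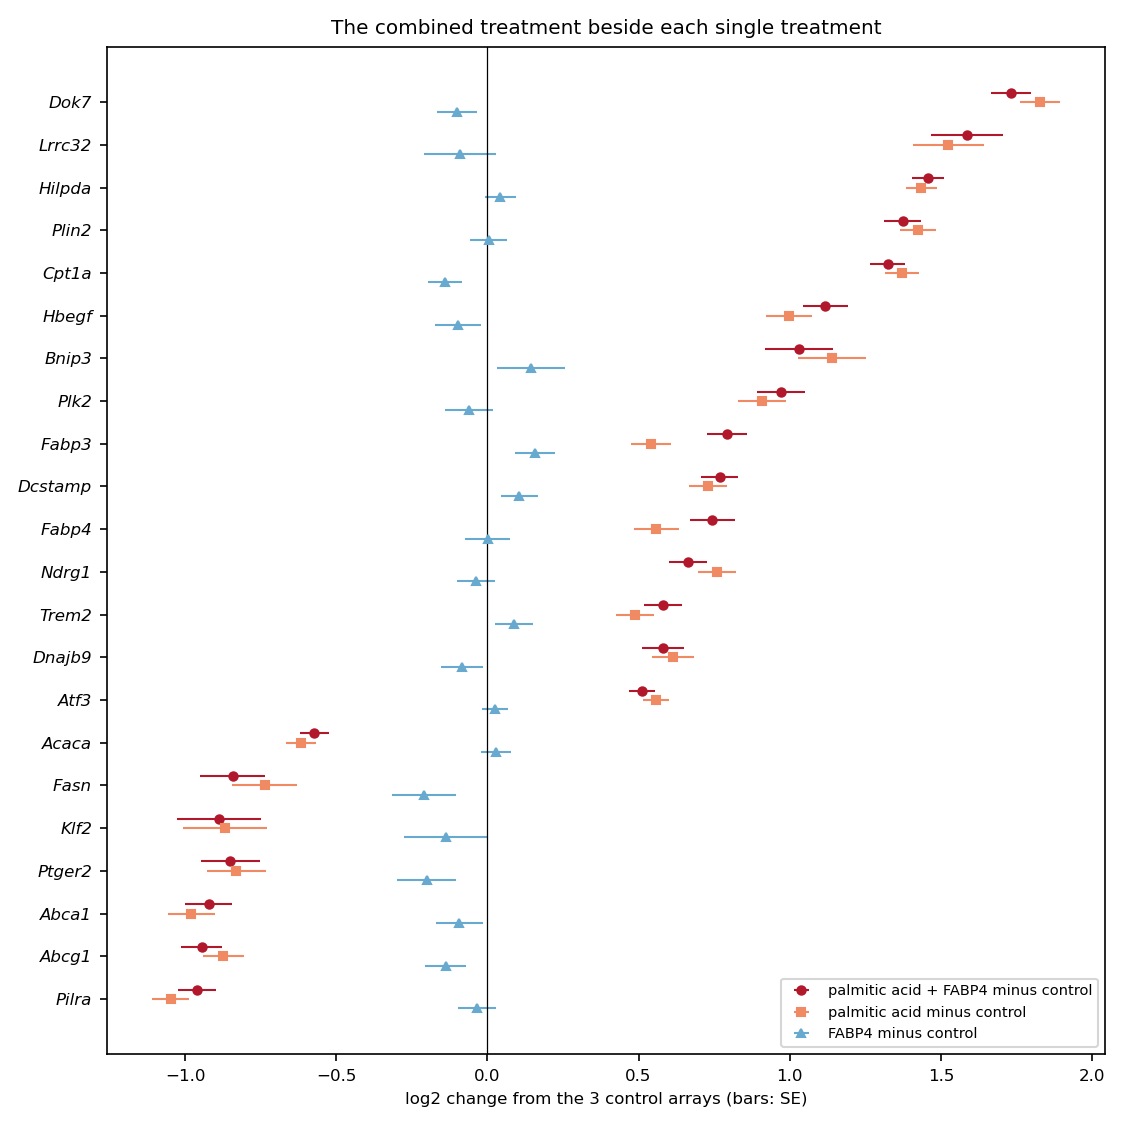
Change from the 3 control arrays (log2, horizontal axis, bars are SE) for 22 genes with palmitic acid plus FABP4, palmitic acid alone and FABP4 alone. The combined values lie close to those of palmitic acid alone, and the values of FABP4 alone lie between -0.21 and 0.16.

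Against FABP4 alone, the contrast for palmitic acid with FABP4 present, 670 genes were called (3.81%), 504 higher (2.86%) and 166 lower (0.943%). FABP4 array 1 lay on slide 1, FABP4 arrays 2 and 3 in row 1 of slide 2 and the treated arrays in row 2 of slide 2. Palmitic acid cannot be told apart from array position in this contrast, and the part of slide and row was not tested. Rises were 75.2% of them, 47.1% of 820 when only probes above background on every array set the percentile, 56.4% of 697 with quantile normalization, 59.9% of 739 with the median over tested genes and 42.1% of 159 with no scaling. On slide 2 alone, without FABP4 array 1, 260 genes were called, 231 of them among the 670. Hypoxia genes had 6 rises, osteoclast genes 7 rises and 1 fall, fatty acid synthesis genes 4 falls, fatty acid binding genes 2 rises, NF-kB genes 1 rise and 3 falls, and cell cycle genes 1 rise and 4 falls, in a contrast that shares its treated arrays with the comparison against controls. Within slide 2 the difference from FABP4 arrays 2 and 3 was 1.89 for Dok7, 1.42 for Hilpda, 1.59 for Lrrc32, 0.90 for Bnip3, 0.62 for Dcstamp, -0.77 for Abca1 and -0.92 for Pilra. FABP4 array 1 differed from the controls on slide 1 by 0.01, 0.05, -0.27, 0.16, 0.02, 0.03 and -0.02 for the same genes.

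The interaction, the combined change minus the sum of the 2 single changes, gave 0 calls by limma (1218 at an unadjusted p under 0.05, lowest adjusted p = 0.300). Its median SE was 0.12, with a 95% confidence interval of 0.26 to each side for a typical gene, before adjustment over 17596 genes. Departures from the sum larger than that also went uncalled, such as those of Fam107a and Suox given next. Among genes with an official symbol, the smallest p-values were those of Lrrc14 (unadjusted p = 1.63e-04), Fam107a (1.76e-04), Suox (2.24e-04), Prpf38b (2.42e-04), 4930565N06Rik and Cgref1, with interaction values of -0.44 ± 0.08, 0.63 ± 0.11, 0.44 ± 0.08 and 0.53 ± 0.10 for the first 4. No value is given for 4930565N06Rik and Cgref1, which were not above background on any control array. Their p-values thus rest in part on background levels. A fixed slide term gave 37 calls, 33 above 0 and 4 below, none of them called without it.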

How the data were processed

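RNA from RAW264.7 cells (50 ng per array, Cy3, per the labels' protocols) was measured on 12 single-colour Agilent arrays. The deposited files hold processed intensities, background-corrected by Agilent Feature Extraction 10.7.3.1 per the file headers. The deposited value table holds the same intensities and gave the same calls. Intensities were divided by each array's 75th percentile over the 59305 spots other than controls and put on the log2 scale here, whereas the values the authors deposited are not log2. Spots of a probe were averaged, a probe was kept if all 3 arrays of some group had it well above background, and the brightest probe stood for each gene. limma 3.58.1 in R 4.3.3 fitted 4 group means to 12 arrays. The number of arrays limits the precision. Replicate numbers did not pair the arrays: same-numbered arrays of palmitic acid plus FABP4 and control had correlations of deviations from -0.05 to 0.0053. Gene names and probe positions (mm9) are the array design's.

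The members and gene lists were chosen with earlier results of these data known. Genes named were Fabp4, the 12 largest rises and falls with non-overlapping groups, the 4 smallest p-values of each list with a call, and the 6 smallest of 2 further contrasts. Other list members without a call were named as familiar genes of their pathway. These were chosen after their values were seen: Dok7, Hbegf, Tent5c, Fbxo15, Rgs16, Nfatc2, Fpr1, Id1, Vegfa, Ero1a, Ctsk, Ocstamp, Clcn7, Tcirg1, Mki67, Ccnb1, Ccnb2, Birc5, Ccnd1, Ccnd3, Cdkn1b, Rrm2, Trem2, Csmd1, Icosl, Cd80, Manf, Sdf2l1, Clec4e, Csf1, Irf5, Dusp6, Tirap, Sqstm1, Ctsc, Cebpa, P4ha2, Mylip and Srebf1. Alternatives changed scaling, background, filter, probe summary, slide or replicate block, moderation, the groups fitted and the arrays left out. The result of 1 cholesterol biosynthesis gene is not reported here.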

Additional observations from a re-analysis of the deposited data

How the results depend on the processing

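Against the controls, the 1323 calls became 435 with no filter on dim probes, 160 and 221 with the slide as a fixed and as a random block, 672 with no scaling, and 554 to 805 without 1 compared array. Without FABP4 array 1, a setting chosen after seeing the data like no scaling and slide 2 alone, they were 2241. Against FABP4 alone, the 670 calls became 185 with no filter, 408 with a replicate block, 1138 with trended and robust moderation, 159 with no scaling, 94 with only the groups compared, 260 on slide 2 alone and 247 to 588 without 1 array. Against palmitic acid alone, the 0 calls became 1 with trended and robust moderation and 0 to 2 without 1 array. The interaction's 0 calls became 37 with the fixed slide block, where they rest on FABP4 array 1. The interaction had 3 calls with no scaling and 0 to 5 without 1 array, and fitting only the groups compared gives it no value. With the replicate block the comparison with controls had 1082 calls, 972 of them shared with the fit without it.

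Of 129 genes named here and called against the controls, 68 kept the call in all 6 fits without 1 array, and 30 with the fixed slide block, where 127 had the same sign at a median of 0.926 of the size and 1.72 times the SE. Signs turned with the fixed slide block for Nkain2 (-0.088), Vmn1r48 (-0.071) and Spring1 (0.11), with the mean of a gene's probes for Csf1 (-0.023), and for Spring1 also with normexp (0.021), the random slide block (0.028) and no scaling (0.012). Without 1 array Suox ranged from -0.0048 to 0.058 and Spring1 from -0.059 to 0.0046, neither of them called. The causes were not tested. With no scaling the median of all genes was 0.08 against the controls, -0.09 against palmitic acid and -0.23 for the interaction. Dim genes limit the depth: at most 46.7% of an array's spots were well above background.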
